A study of Homo sapiens with 10 samples.

Results

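The noncoding snoRNA host genes are long noncoding RNA genes whose introns carry small nucleolar RNAs. The group was chosen with earlier results of these data known. It was defined by gene symbol, with no measured value: every gene named SNHG and a number, together with GAS5, ZFAS1, DANCR and EPB41L4A-AS1. Of the 58395 genes counted, 32 belonged to it, and 29 of these were among the 16905 genes with enough counts to be tested. RNA was sequenced from HeyA8, an established human ovarian cancer cell line, to learn which transcripts change when cells receive siRNAs that differ in their 6mer seed, the bases near the start of the guide strand that find matching messenger RNAs in the way of a microRNA seed. All cells were transfected with an siRNA duplex at 10 nM. Cells that received the control duplex siNT1, which carries the addition S2'OM in the labels, or siGGGGGC, called siMxy in the titles, were lysed at 24 h or at 48 h. Cells that received siGGCAGU, called si34a in the titles and bearing the seed of miR-34a-5p, were lysed at 48 h. The study's methods list the sense strands of siNT1, siGGGGGC and siGGCAGU with the same modified start, mUmG. Each of these 5 groups had 2 libraries from separate wells of 1 line, so a p-value here measures the spread between wells and libraries. All comparisons with siNT1 at 48 h share the same 2 control libraries. Per the study's methods, wells kept to 48 h had their medium changed at 24 h. Comparisons of 48 h with 24 h therefore hold both the time and the medium change.

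A snoRNA host gene is transcribed and spliced like other genes, and the snoRNAs are trimmed out of its excised introns. Box C/D snoRNAs guide 2'-O-methylation and box H/ACA snoRNAs guide pseudouridylation, mostly of ribosomal RNA, while scaRNAs act on spliceosomal RNAs in Cajal bodies. The spliced host RNA that remains has no long conserved reading frame. Many host RNAs begin with a 5' terminal oligopyrimidine (TOP) tract, as ribosomal protein messenger RNAs do, and many, GAS5 first of all, are engaged by ribosomes and removed by nonsense-mediated decay (NMD). The host RNA and its snoRNA are made from 1 transcript but are turned over separately.

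The sequences that bear on these measurements are the seeds and the starts of the host transcripts. The mature sequence of the microRNA whose seed siGGCAGU shares is given first, with the seed at bases 2 to 8 in capitals. It was taken from RefSeq (GRCh38.p14, chr1:9151735-9151756, minus strand), and the GGCAGU of the siRNA name is bases 2 to 7.
hsa-miR-34a-5p: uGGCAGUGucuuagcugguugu

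Of the 29 tested hosts, 25 had a RefSeq start sequence. At 7 of them, 28% of those 25, the annotated start was a C followed by at least 4 bases that were each C or T, the form of a TOP start. The same form stood at 5.31% of the starts of all tested genes with a RefSeq start, at 3.05% of those of other tested long noncoding RNA genes, and at 67.2% of those of ribosomal protein genes. A tract that began within 10 bases of the annotated start was found for 68% of the hosts and 33.9% of all tested genes. The windows shown run from 10 bases before the RefSeq start to 20 bases from it on the strand of the gene, with the unbroken run of C and T at the start in capitals. They are chr20:49278632-49278661 for ZFAS1, chr6:85678714-85678743 for SNHG5, chr16:2155339-2155368 for SNHG19, chr6:31834906-31834935 for SNHG32, chr1:28581854-28581883 for SNHG12 and chr5:139274091-139274120 for SNHG4, with SNHG5, SNHG19 and SNHG12 on the minus strand. The 7th host, SNHG18, starts in a long repeat of CTC. Annotations differ in where a transcript begins: GAS5 and SNHG29 have a TOP tract at the start of their canonical GENCODE transcript and none at their RefSeq start.
ZFAS1: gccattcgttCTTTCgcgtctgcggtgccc
SNHG5: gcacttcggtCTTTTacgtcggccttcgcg
SNHG19: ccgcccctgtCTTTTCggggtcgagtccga
SNHG32: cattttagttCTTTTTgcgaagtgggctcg
SNHG12: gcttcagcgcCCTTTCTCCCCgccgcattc
SNHG4: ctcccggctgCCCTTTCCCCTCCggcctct

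The word that pairs with the seed of siGGGGGC is GCCCCC, and that for siGGCAGU is ACTGCC. In the canonical GENCODE transcript, on the strand of the gene only, GCCCCC stood in 13 of the 29 tested hosts (44.8%), against 50.7% of all tested genes and 32.4% of other long noncoding RNA genes. ACTGCC stood in 10 of 29 (34.5%), against 52.5% and 33.7%. The hosts' transcripts had a median length of 1410 bases, against 2658 bases for all tested genes, which also moves these shares. Some of the sites are shown with the word in capitals, read from hg38 transcripts: the first of 3 GCCCCC words of SNHG7 (chr9:136722489-136722512, minus strand), the single GCCCCC of SNHG3 (chr1:28510023-28510046, plus strand), the second ACTGCC of SNHG26 (chr7:22860610-22860633, plus strand) and the second ACTGCC of SNHG8 (chr4:118284291-118284314, plus strand), which overlaps the GCCCCC word of that transcript. They are shown because these hosts fell with the siRNA named and because SNHG26 holds no GCCCCC word.
SNHG7, GCCCCC: cccaccggcGCCCCCaacccttgc
SNHG3, GCCCCC: ctttgtcaaGCCCCCtgcactggc
SNHG26, ACTGCC: aaagtggagACTGCCtctggagca
SNHG8, ACTGCC: gttaggcaaACTGCCcccagttga

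Total counts per library ranged from 19781445 to 42428986, and the hosts made up 0.135% to 0.297% of them. RNA above 140 nt was sequenced per the labels, which is longer than most snoRNAs. EIF5A and PES1, survival genes that the study examined with siGGGGGC, had normalised counts of 5415 and 5521 and of 4535 and 4564 with siNT1 at 24 h and of 1360 and 1211 and of 1325 and 1333 with siGGGGGC. The epithelial keratins KRT7, KRT8 and KRT18 and the mesenchymal filament VIM were detected in every library, whereas PTPRC of leukocytes and DCN of fibroblasts had at most 5.23 normalised counts and the ovarian carcinoma antigen MUC16 at most 3 in 9 of 10 libraries. The planned markers also included EPCAM, PAX8, WT1, CDH2 and, for endothelium, PECAM1, whose values are not given here, so these markers are a part of that list. The small RNA genes RN7SL2 and SNORD3A took between 19.8% and 32.0% of a library, with 27.8% and 28.3% in the siNT1 and 31.1% and 30.8% in the siGGGGGC libraries at 24 h. At 48 h they took 19.8% and 23.9% with siNT1, 32.0% and 24.2% with siGGCAGU and 28.1% and 24.0% with siGGGGGC. Both siNT1 libraries at 48 h thus lay below every treated library, and replicates were less even than at 24 h. The part of these genes in the results was not tested beyond a fit without such genes, in which the same numbers of hosts passed as below in all 6 comparisons.

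GAS5 was the most abundant host and 3 hosts could not be measured. To compare genes, counts were divided by the annotated exon length and by the normalised library size, giving CPM per kb, where CPM is the count scaled to a fixed library total of 1000000. In the siNT1 libraries at 48 h the mean level on this scale was 108 for GAS5, 72.5 for SNHG32, 66.0 for SNHG1, 49.2 for SNHG19, 41.6 for SNHG29, 36.2 for SNHG3 and 35.0 for SNHG16. GAS5 lay above the next genes in that order in both libraries, at 94.8 and 122, while SNHG1, at 57.9 and 74.2, spanned the range of SNHG32, at 71.6 and 73.5, so these neighbours did not differ beyond their spread. SNHG14 was lowest at 0.053, over an annotated exon length of 122609 bases. The length covers all annotated transcripts, which understates a gene of which only a short isoform is made. Exon lengths and exon overlaps were taken from GENCODE v44, and the exons that the submitters used for counting may differ from these. SNHG27 and SNHG28 had 0 counts in every library, which at these depths allows up to 3 counts per library, or 0.0707 to 0.152 CPM. SNHG22, the host of SCARNA17, had 0 to 5 counts per library and 23 in all 10. For SNHG28, 90.75% of the exon bases lie in exons of a coding gene on the same strand, where a read cannot be assigned to 1 gene. Among the tested hosts SNHG31, SNHG21 and SNHG18 were the thinnest, with 97, 224 and 257 counts over all libraries.

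**Figure D1:**
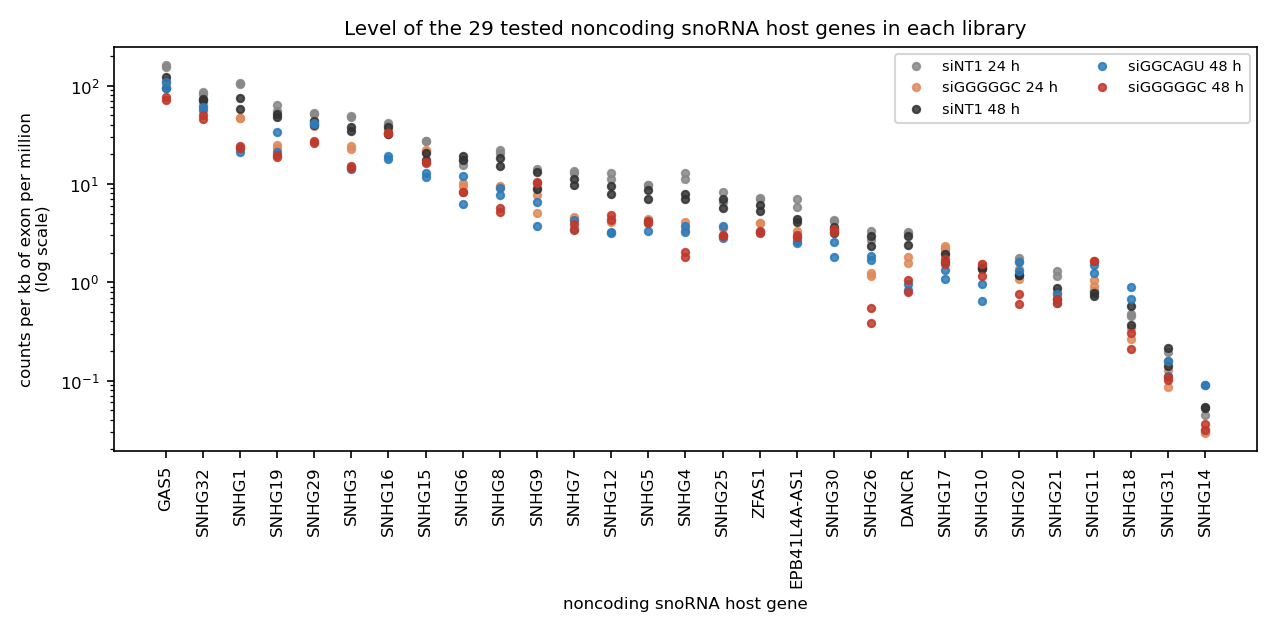
Level of each of the 29 tested hosts, as CPM per kb of annotated exon on a log scale (vertical axis), with the hosts ordered by their mean level with siNT1 at 48 h (horizontal axis). Each point is 1 library and its color gives the group. GAS5 is at the left with a mean of 108, SNHG14 at the right with 0.053, and for most hosts the siNT1 points lie at the top of the column.

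Transfection with either siRNA was followed by lower levels of most hosts. Their normalised counts summed to 79177 and 80846 in the siNT1 libraries at 24 h and to 49613 and 51095 with siGGGGGC, a range that did not overlap. At 48 h the sums were 55011 and 64936 with siNT1, 41801 and 40524 with siGGCAGU, and 35835 and 35603 with siGGGGGC. Since the RNA came from whole cultures, fewer cells that make these RNAs and less RNA per cell cannot be told apart.

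With siGGGGGC at 24 h, 19 of 29 hosts passed the test as lower and 0 as higher, which means a Benjamini-Hochberg adjusted p under 0.05 from the quasi-likelihood test of edgeR, while 8.58% of all genes tested passed as lower and 10.9% as higher. At an unadjusted p under 0.05 there were also 0 higher and 21 lower in edgeR, and DESeq2 called 0 higher and 18 lower. At 48 h, 20 passed as lower and 1 as higher, against 27.4% and 27.9% of all genes. With siGGCAGU at 48 h, 21 passed as lower and 2 as higher, against 24.7% and 27.9%. The median log2 fold change of the hosts was -0.75, -0.81 and -0.77 in these comparisons, beside 0.0035, -0.011 and 0.024 over all genes and -0.21, -0.17 and 0.06 over the 2238 other tested long noncoding RNA genes. Hosts that passed with a log2 fold change beyond -1 numbered 11 with siGGGGGC at 24 h, 10 at 48 h and 8 with siGGCAGU, against 2.19%, 11% and 9.59% of all genes. Beyond 1 in the other direction there were 0, 1 and 0 hosts, against 1.55%, 10.5% and 10.7%. For those that did not pass, 10, 8 and 6 in number, the log2 fold changes ran from -0.87 to 0.27, from -0.78 to -0.024 and from -0.48 to 0.65.

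Both treated libraries lay below both control libraries for 26 hosts with siGGGGGC at 24 h (30.7% of all genes), for 22 at 48 h (39.3%) and for 21 with siGGCAGU (34.9%). At 24 h, SNHG11 and SNHG17 lay above (32% of all genes) and SNHG10 overlapped. With siGGGGGC at 48 h, SNHG11 lay above (38.1%), and SNHG9, SNHG10, SNHG16, SNHG17, SNHG21 and SNHG30 overlapped. With siGGCAGU, SNHG11, SNHG14, SNHG18 and SNHG20 lay above (37.7%), and GAS5, SNHG21, SNHG29 and SNHG31 overlapped.

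**Figure D2:**
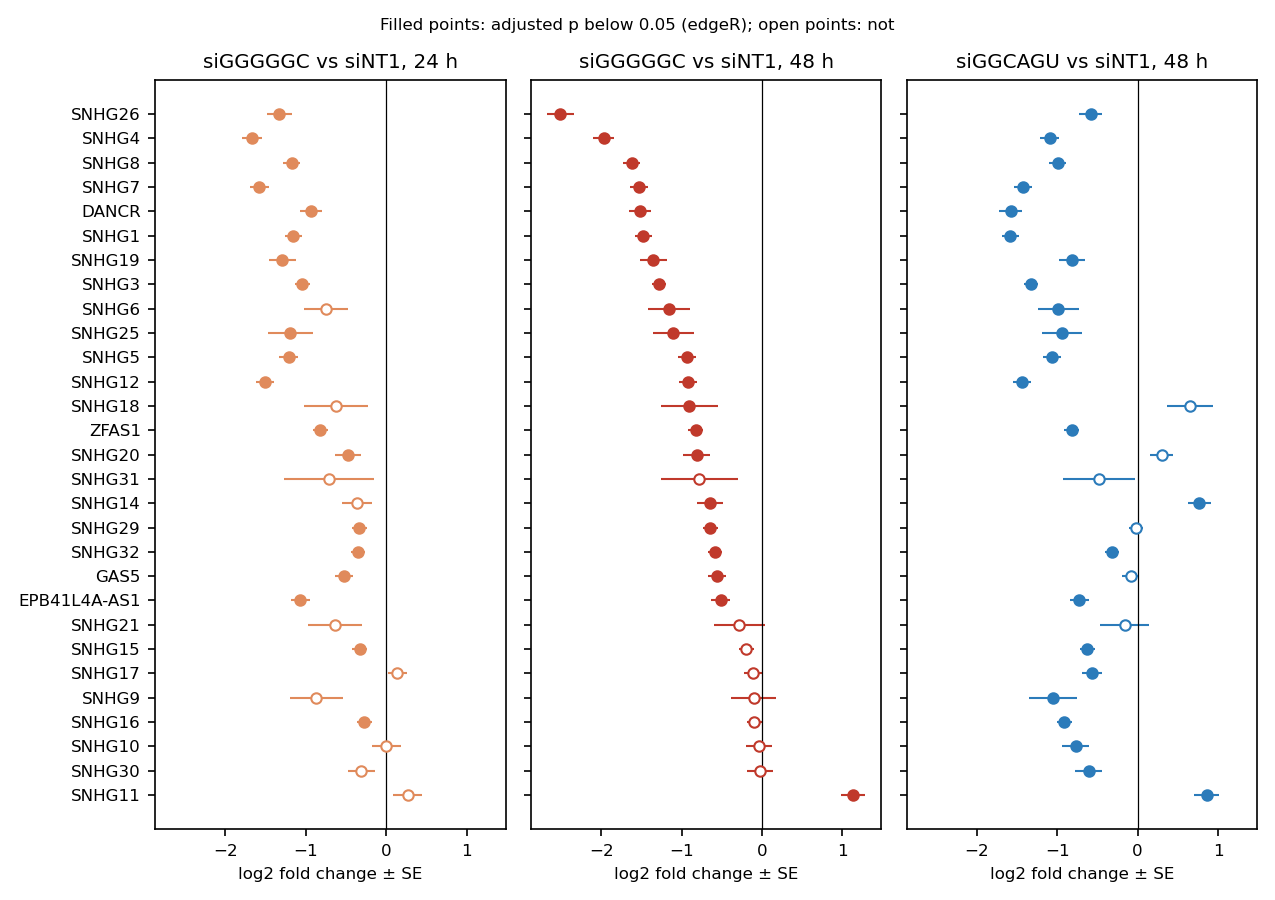
Log2 fold change against siNT1 (horizontal axes, bars ± SE from the fit of all 10 libraries) of the 29 tested hosts (vertical axis, ordered by the siGGGGGC value at 48 h). Filled points have an edgeR adjusted p below 0.05. Nearly all points lie left of 0 in each panel, SNHG26 is lowest with siGGGGGC at 48 h at -2.51, and SNHG11 lies right of 0 at 1.13.

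Hosts of box C/D snoRNAs were 13 of the tested hosts, a grouping made after the values were seen, by the names of the snoRNA genes inside them and for GAS5 by what is known of it, since the annotation used lists no snoRNA gene on its span. Of these, 9 passed as lower with siGGGGGC at 24 h, 11 at 48 h and 9 with siGGCAGU, where 8.58%, 27.4% and 24.7% of all genes did. Hosts of box H/ACA snoRNAs were 11, and 7, 6 and 9 of them passed as lower. SNHG12 and SNHG25, which hold both kinds, passed as lower in all of these comparisons. Of the 3 scaRNA hosts 1 passed as lower in each.

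GAS5, named for its accumulation in growth-arrested cells, hosts a series of box C/D snoRNAs. GAS5 had normalised counts of 19659 and 20574 in the siNT1 libraries and 13581 and 14248 in the siGGGGGC libraries at 24 h, and of 12143 and 15607 with siNT1, 13918 and 12182 with siGGCAGU and 9767 and 9135 with siGGGGGC at 48 h. The siGGGGGC libraries were the lowest at each time, whereas those of siGGCAGU fell within the siNT1 range. Against siNT1, GAS5 had a log2 fold change of -0.53 ± 0.11 with siGGGGGC at 24 h (edgeR adjusted p = 0.00195) and -0.55 ± 0.11 with siGGGGGC at 48 h (edgeR adjusted p = 0.00031). In siGGGGGC against siNT1 at 48 h the log2 fold change of GAS5 was -0.37 without siNT1 48 h replicate 2. SNHG29, formerly LRRC75A-AS1, hosts SNORD49A, SNORD49B and SNORD65. SNHG29 had normalised counts of 12013 and 12356 in the siNT1 libraries and 9093 and 10191 in the siGGGGGC libraries at 24 h, and of 9201 and 10149 with siNT1, 9653 and 9434 with siGGCAGU and 6034 and 6342 with siGGGGGC at 48 h. It followed the same order as GAS5, with the siGGCAGU libraries between the control libraries. Against siNT1, SNHG29 had a log2 fold change of -0.34 ± 0.09 with siGGGGGC at 24 h (edgeR adjusted p = 0.0133) and -0.65 ± 0.09 with siGGGGGC at 48 h (edgeR adjusted p = 7.27e-06). For SNHG29 in siGGGGGC against siNT1 at 24 h, the edgeR adjusted p was 0.0821 without siNT1 24 h replicate 1, 0.136 without siNT1 24 h replicate 2 and 0.22 without siGGGGGC 24 h replicate 1. SNHG32 carries SNORD48 and SNORD52. SNHG32 had normalised counts of 3876 and 4013 in the siNT1 libraries and 3203 and 2974 in the siGGGGGC libraries at 24 h, and of 3352 and 3437 with siNT1, 2806 and 2653 with siGGCAGU and 2163 and 2353 with siGGGGGC at 48 h. Against siNT1, SNHG32 had a log2 fold change of -0.35 ± 0.09 with siGGGGGC at 24 h (edgeR adjusted p = 0.00625), -0.59 ± 0.09 with siGGGGGC at 48 h (edgeR adjusted p = 8.79e-06) and -0.32 ± 0.09 with siGGCAGU at 48 h (edgeR adjusted p = 0.00411). For SNHG32 in siGGGGGC against siNT1 at 24 h, the edgeR adjusted p was 0.0934 without siNT1 24 h replicate 2 and 0.12 without siGGGGGC 24 h replicate 2. In each comparison with siNT1 these 3 abundant hosts had log2 fold changes nearer to 0 than the median of the hosts.

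SNHG1 hosts the SNORD22 and SNORD25 to SNORD30 family and was among the first noncoding hosts to be described. SNHG1 had normalised counts of 10674 and 10887 in the siNT1 libraries and 4859 and 4822 in the siGGGGGC libraries at 24 h, and of 5980 and 7662 with siNT1, 2396 and 2168 with siGGCAGU and 2524 and 2387 with siGGGGGC at 48 h. Levels with siGGCAGU and siGGGGGC at 48 h were close to each other and far below both control libraries. Against siNT1, SNHG1 had a log2 fold change of -1.16 ± 0.10 with siGGGGGC at 24 h (edgeR adjusted p = 2.37e-07), -1.47 ± 0.11 with siGGGGGC at 48 h (edgeR adjusted p = 7.39e-10) and -1.58 ± 0.11 with siGGCAGU at 48 h (edgeR adjusted p = 2.29e-10). SNHG16, the host of SNORD1A, SNORD1B and SNORD1C, behaved otherwise. SNHG16 had normalised counts of 6037 and 6289 in the siNT1 libraries and 4858 and 5348 in the siGGGGGC libraries at 24 h, and of 4838 and 5656 with siNT1, 2903 and 2682 with siGGCAGU and 4902 and 4916 with siGGGGGC at 48 h. Its siGGGGGC libraries at 48 h lay inside the siNT1 range, and the siGGCAGU libraries lay below every other library. Against siNT1, SNHG16 had a log2 fold change of -0.27 ± 0.09 with siGGGGGC at 24 h (edgeR adjusted p = 0.0475) and -0.91 ± 0.09 with siGGCAGU at 48 h (edgeR adjusted p = 1.09e-07). For SNHG16 in siGGGGGC against siNT1 at 24 h, the edgeR adjusted p was 0.0522 without a filter on counts, 0.154 without siNT1 24 h replicate 1, 0.281 without siNT1 24 h replicate 2, 0.362 without siGGGGGC 24 h replicate 1 and 0.0971 without siGGGGGC 24 h replicate 2, and the DESeq2 adjusted p was 0.0503.

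SNHG5 is the host of the SNORD50 snoRNAs. SNHG5 had normalised counts of 3206 and 3214 in the siNT1 libraries and 1444 and 1320 in the siGGGGGC libraries at 24 h, and of 2288 and 2870 with siNT1, 1095 and 1362 with siGGCAGU and 1311 and 1383 with siGGGGGC at 48 h. Against siNT1, SNHG5 had a log2 fold change of -1.22 ± 0.11 with siGGGGGC at 24 h (edgeR adjusted p = 6.31e-07), -0.94 ± 0.11 with siGGGGGC at 48 h (edgeR adjusted p = 1.14e-06) and -1.07 ± 0.11 with siGGCAGU at 48 h (edgeR adjusted p = 2.27e-07). ZFAS1, which starts next to ZNFX1 on the other strand, carries SNORD12, SNORD12B and SNORD12C. ZFAS1 had normalised counts of 1544 and 1519 in the siNT1 libraries and 857 and 875 in the siGGGGGC libraries at 24 h, and of 1146 and 1323 with siNT1, 701 and 699 with siGGCAGU and 714 and 683 with siGGGGGC at 48 h. Its level was nearly the same with either siRNA at 48 h. Against siNT1, ZFAS1 had a log2 fold change of -0.82 ± 0.09 with siGGGGGC at 24 h (edgeR adjusted p = 4.39e-06), -0.82 ± 0.09 with siGGGGGC at 48 h (edgeR adjusted p = 3.58e-07) and -0.82 ± 0.09 with siGGCAGU at 48 h (edgeR adjusted p = 3.54e-07).

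SNHG19, a short host of SNORD60, and SNHG6, the host of SNORD87, had siGGCAGU libraries that differed widely from each other. SNHG19 had normalised counts of 885 and 1015 in the siNT1 libraries and 399.9 and 375 in the siGGGGGC libraries at 24 h, and of 757 and 814 with siNT1, 336 and 541 with siGGCAGU and 313 and 303 with siGGGGGC at 48 h. Against siNT1, SNHG19 had a log2 fold change of -1.29 ± 0.17 with siGGGGGC at 24 h (edgeR adjusted p = 0.000143), -1.35 ± 0.17 with siGGGGGC at 48 h (edgeR adjusted p = 1.24e-05) and -0.82 ± 0.16 with siGGCAGU at 48 h (edgeR adjusted p = 0.000737). In siGGCAGU against siNT1 the log2 fold change of SNHG19 was -0.54 without siGGCAGU 48 h replicate 1 and -1.23 without siGGCAGU 48 h replicate 2. SNHG6 had normalised counts of 1031 and 1159 in the siNT1 libraries and 624 and 676 in the siGGGGGC libraries at 24 h, and of 1147 and 1266 with siNT1, 409 and 788 with siGGCAGU and 539 and 543 with siGGGGGC at 48 h. Against siNT1, SNHG6 had a log2 fold change of -1.16 ± 0.26 with siGGGGGC at 48 h (edgeR adjusted p = 0.00841) and -0.99 ± 0.26 with siGGCAGU at 48 h (edgeR adjusted p = 0.0165). The siGGCAGU libraries of each gene still lay below both control libraries at 48 h. For SNHG6 in siGGGGGC against siNT1 at 48 h, the edgeR adjusted p was 0.0698 without siNT1 48 h replicate 2. For SNHG6 in siGGCAGU against siNT1, the edgeR adjusted p was 0.0754 without siNT1 48 h replicate 1 and 0.111 without siNT1 48 h replicate 2. In siGGCAGU against siNT1 the log2 fold change of SNHG6 was -0.62 without siGGCAGU 48 h replicate 1 and -1.56 without siGGCAGU 48 h replicate 2. In SNHG6, 58.88% of the exon bases lie opposite exons of MCMDC2, and since the strand setting of the counting is not stated, reads from the other strand could not be told apart there.

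SNHG26, the host of SNORD93, had the largest fall of any host with siGGGGGC at 48 h. SNHG26 had normalised counts of 646 and 518 in the siNT1 libraries and 224 and 239 in the siGGGGGC libraries at 24 h, and of 459 and 575 with siNT1, 329.6 and 359 with siGGCAGU and 74.9 and 107 with siGGGGGC at 48 h. The order of the 48 h groups did not overlap, with siGGGGGC lowest and siGGCAGU between it and siNT1. Against siNT1, SNHG26 had a log2 fold change of -1.33 ± 0.16 with siGGGGGC at 24 h (edgeR adjusted p = 7.08e-06), -2.51 ± 0.17 with siGGGGGC at 48 h (edgeR adjusted p = 4.18e-10) and -0.59 ± 0.14 with siGGCAGU at 48 h (edgeR adjusted p = 0.00183). SNHG14 is the long host of the imprinted SNORD115 and SNORD116 clusters on chromosome 15. SNHG14 had normalised counts of 142 and 101 in the siNT1 libraries and 93.8 and 95.8 in the siGGGGGC libraries at 24 h, and of 171 and 166 with siNT1, 288 and 286 with siGGCAGU and 116 and 99.4 with siGGGGGC at 48 h. It was higher with siGGCAGU than in any other library and lower with siGGGGGC than with siNT1 at 48 h. Against siNT1, SNHG14 had a log2 fold change of -0.65 ± 0.16 with siGGGGGC at 48 h (edgeR adjusted p = 0.00215) and 0.77 ± 0.15 with siGGCAGU at 48 h (edgeR adjusted p = 0.00017). SNHG30, the host of SNORD7, passed the test against siNT1 with siGGCAGU alone. SNHG30 had normalised counts of 180.2 and 178 in the siNT1 libraries and 143 and 146 in the siGGGGGC libraries at 24 h, and of 134 and 152 with siNT1, 75.9 and 108 with siGGCAGU and 137 and 145 with siGGGGGC at 48 h. Against siNT1, SNHG30 had a log2 fold change of -0.61 ± 0.17 with siGGCAGU at 48 h (edgeR adjusted p = 0.00458). For SNHG30 in siGGCAGU against siNT1, the edgeR adjusted p was 0.0621 without siGGCAGU 48 h replicate 1. In siGGCAGU against siNT1 the log2 fold change of SNHG30 was -0.92 without siGGCAGU 48 h replicate 2. SNHG18 has SNORD123 in an intron. SNHG18 had normalised counts of 25.1 and 26.2 in the siNT1 libraries and 18.8 and 14.3 in the siGGGGGC libraries at 24 h, and of 20.1 and 31.5 with siNT1, 48.4 and 36.4 with siGGCAGU and 16.8 and 11.4 with siGGGGGC at 48 h. It passed as lower with siGGGGGC at 48 h and had its highest values with siGGCAGU, where it did not pass. Against siNT1, SNHG18 had a log2 fold change of -0.91 ± 0.35 with siGGGGGC at 48 h (edgeR adjusted p = 0.0358). For SNHG18 in siGGGGGC against siNT1 at 48 h, the edgeR adjusted p was 0.0539 with only the compared libraries fitted, 0.335 without siNT1 48 h replicate 2 and 0.246 without siGGGGGC 48 h replicate 2, and the DESeq2 adjusted p was 0.141. In siGGGGGC against siNT1 at 48 h the log2 fold change of SNHG18 was -0.53 without siNT1 48 h replicate 2.

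**Figure D3:**
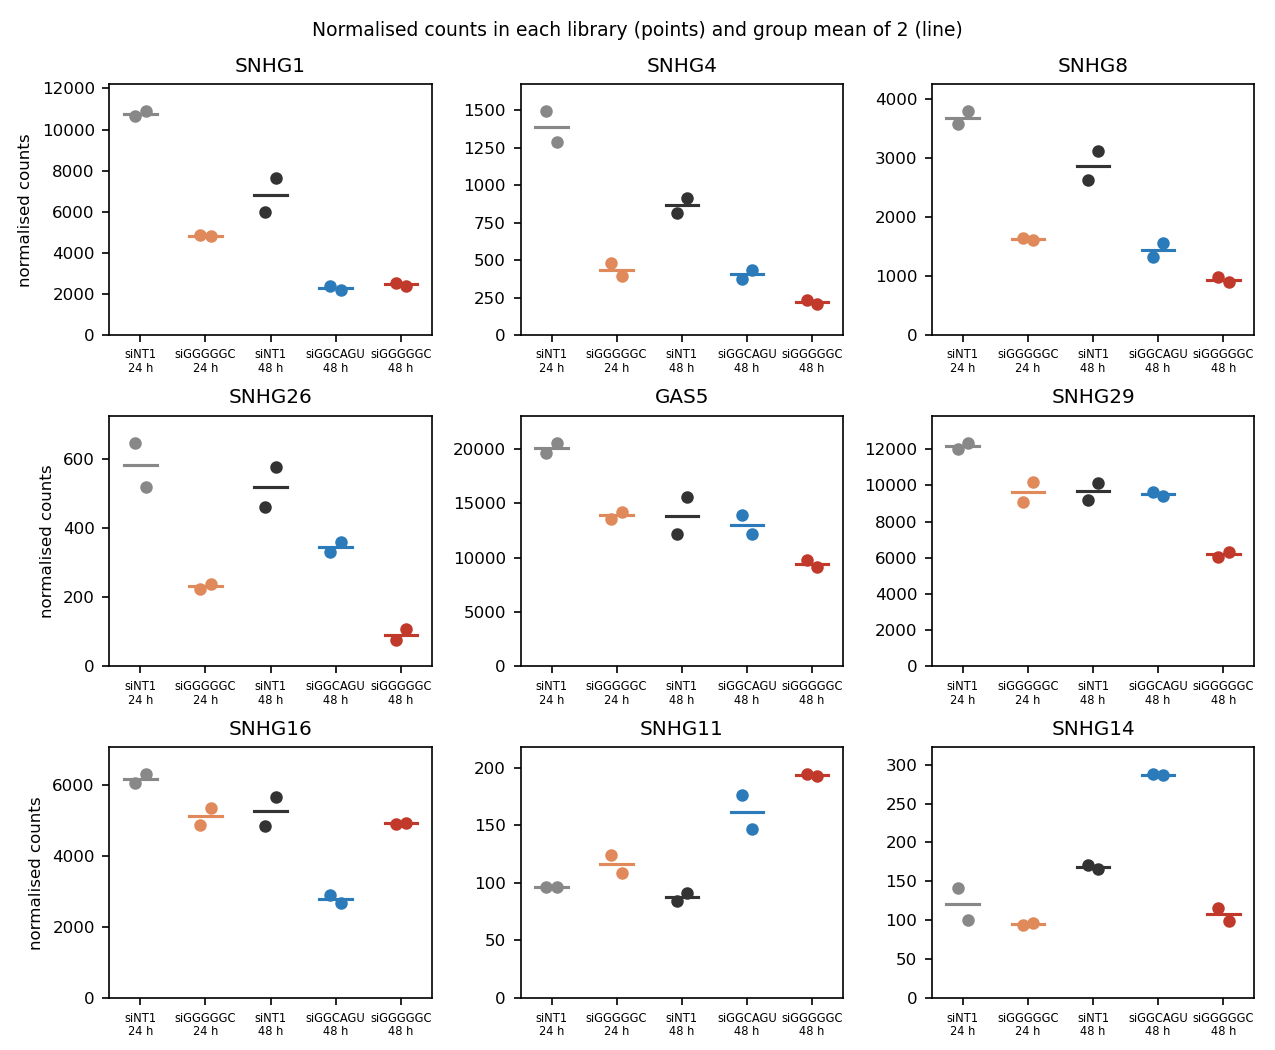
Normalised counts (vertical axes from 0) of 9 hosts in the 5 groups (horizontal axes), with a point per library and a line at the mean of 2. SNHG1, SNHG4 and SNHG8 are low with both siRNAs, GAS5 and SNHG29 are lowest with siGGGGGC at 48 h, SNHG16 is lowest with siGGCAGU, SNHG11 is highest with either siRNA at 48 h, and SNHG14 is highest with siGGCAGU.

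Hosts of box H/ACA snoRNAs included several of the largest falls. SNHG3 hosts the long snoRNAs SNORA73A and SNORA73B. SNHG3 had normalised counts of 5185 and 5119 in the siNT1 libraries and 2603 and 2397 in the siGGGGGC libraries at 24 h, and of 3650 and 4040 with siNT1, 1494 and 1574 with siGGCAGU and 1530 and 1634 with siGGGGGC at 48 h. Against siNT1, SNHG3 had a log2 fold change of -1.04 ± 0.09 with siGGGGGC at 24 h (edgeR adjusted p = 1.04e-07), -1.28 ± 0.09 with siGGGGGC at 48 h (edgeR adjusted p = 4.79e-10) and -1.33 ± 0.09 with siGGCAGU at 48 h (edgeR adjusted p = 2.35e-10). SNHG8 is the host of SNORA24. SNHG8 had normalised counts of 3578 and 3790 in the siNT1 libraries and 1650 and 1610 in the siGGGGGC libraries at 24 h, and of 2622 and 3122 with siNT1, 1313 and 1560 with siGGCAGU and 981 and 889.5 with siGGGGGC at 48 h. The siGGGGGC libraries at 48 h were the lowest, below those of siGGCAGU. Against siNT1, SNHG8 had a log2 fold change of -1.18 ± 0.10 with siGGGGGC at 24 h (edgeR adjusted p = 1.71e-07), -1.62 ± 0.10 with siGGGGGC at 48 h (edgeR adjusted p = 1.8e-10) and -0.996 ± 0.10 with siGGCAGU at 48 h (edgeR adjusted p = 9.17e-08). In SNHG8, 37.6% of the exon bases lie opposite exons of PRSS12.

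SNHG7 holds SNORA17A and SNORA17B. SNHG7 had normalised counts of 1655 and 1705 in the siNT1 libraries and 541 and 583 in the siGGGGGC libraries at 24 h, and of 1252 and 1425 with siNT1, 442 and 549.7 with siGGCAGU and 497 and 435 with siGGGGGC at 48 h. Levels were similar in all 6 libraries that received siGGGGGC or siGGCAGU. Against siNT1, SNHG7 had a log2 fold change of -1.58 ± 0.11 with siGGGGGC at 24 h (edgeR adjusted p = 1.22e-08), -1.52 ± 0.11 with siGGGGGC at 48 h (edgeR adjusted p = 1.06e-09) and -1.42 ± 0.11 with siGGCAGU at 48 h (edgeR adjusted p = 1.89e-09). SNHG4 carries SNORA74A and SNORA74D and shares 14.01% of its exon bases with MATR3 on the same strand. SNHG4 had normalised counts of 1494 and 1291 in the siNT1 libraries and 481 and 393 in the siGGGGGC libraries at 24 h, and of 818 and 918 with siNT1, 375 and 433 with siGGCAGU and 235 and 209 with siGGGGGC at 48 h. It had the lowest log2 fold change of the hosts with siGGGGGC at 24 h. Against siNT1, SNHG4 had a log2 fold change of -1.67 ± 0.12 with siGGGGGC at 24 h (edgeR adjusted p = 1.5e-08), -1.97 ± 0.13 with siGGGGGC at 48 h (edgeR adjusted p = 1.66e-10) and -1.10 ± 0.12 with siGGCAGU at 48 h (edgeR adjusted p = 1.95e-07).

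DANCR, known as a brake on differentiation and the host of SNORA26, fell at both times. DANCR had normalised counts of 863 and 847 in the siNT1 libraries and 413 and 476 in the siGGGGGC libraries at 24 h, and of 629.7 and 777 with siNT1, 255 and 220.2 with siGGCAGU and 282 and 211 with siGGGGGC at 48 h. Against siNT1, DANCR had a log2 fold change of -0.94 ± 0.14 with siGGGGGC at 24 h (edgeR adjusted p = 6.61e-05), -1.52 ± 0.14 with siGGGGGC at 48 h (edgeR adjusted p = 2.64e-08) and -1.58 ± 0.14 with siGGCAGU at 48 h (edgeR adjusted p = 1.3e-08). EPB41L4A-AS1 hosts SNORA13 and lies opposite EPB41L4A over 51.25% of its exon bases. EPB41L4A-AS1 had normalised counts of 650.4 and 779 in the siNT1 libraries and 367 and 315 in the siGGGGGC libraries at 24 h, and of 459 and 488 with siNT1, 279 and 292 with siGGCAGU and 325 and 338 with siGGGGGC at 48 h. It was lower than siNT1 in every treated pair, with similar levels in the treated libraries at both times. Against siNT1, EPB41L4A-AS1 had a log2 fold change of -1.07 ± 0.12 with siGGGGGC at 24 h (edgeR adjusted p = 4.25e-06), -0.51 ± 0.12 with siGGGGGC at 48 h (edgeR adjusted p = 0.001) and -0.73 ± 0.12 with siGGCAGU at 48 h (edgeR adjusted p = 3.35e-05). SNHG15 is the host of SNORA9. SNHG15 had normalised counts of 2813 and 2785 in the siNT1 libraries and 2243 and 2205 in the siGGGGGC libraries at 24 h, and of 1787 and 2116 with siNT1, 1339 and 1199 with siGGCAGU and 1671 and 1734 with siGGGGGC at 48 h. Against siNT1, SNHG15 had a log2 fold change of -0.33 ± 0.09 with siGGGGGC at 24 h (edgeR adjusted p = 0.0162) and -0.62 ± 0.09 with siGGCAGU at 48 h (edgeR adjusted p = 1.33e-05). For SNHG15 in siGGGGGC against siNT1 at 24 h, the edgeR adjusted p was 0.119 without siNT1 24 h replicate 1, 0.107 without siNT1 24 h replicate 2, 0.0992 without siGGGGGC 24 h replicate 1 and 0.131 without siGGGGGC 24 h replicate 2.

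SNHG17 hosts the SNORA71 snoRNAs. SNHG17 had normalised counts of 671 and 615 in the siNT1 libraries and 697 and 716 in the siGGGGGC libraries at 24 h, and of 595 and 498 with siNT1, 408 and 335 with siGGCAGU and 472 and 537 with siGGGGGC at 48 h. It was slightly above siNT1 with siGGGGGC at 24 h, where it did not pass. Against siNT1, SNHG17 had a log2 fold change of -0.57 ± 0.12 with siGGCAGU at 48 h (edgeR adjusted p = 0.000592). SNHG9, next to RPS2, is the host of SNORA78. SNHG9 had normalised counts of 224 and 145 in the siNT1 libraries and 123 and 80.1 in the siGGGGGC libraries at 24 h, and of 142 and 209.7 with siNT1, 60.2 and 104 with siGGCAGU and 162 and 168 with siGGGGGC at 48 h. Its libraries spread widely within most groups. Against siNT1, SNHG9 had a log2 fold change of -1.05 ± 0.30 with siGGCAGU at 48 h (edgeR adjusted p = 0.0143). For SNHG9 in siGGCAGU against siNT1, the edgeR adjusted p was 0.0991 without siNT1 48 h replicate 2.

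SNHG11, the host of SNORA60, was the host that rose with both siRNAs at 48 h. SNHG11 had normalised counts of 96.7 and 96.9 in the siNT1 libraries and 124 and 109 in the siGGGGGC libraries at 24 h, and of 84.4 and 91.7 with siNT1, 177 and 147 with siGGCAGU and 194 and 193 with siGGGGGC at 48 h. All 4 treated libraries at 48 h lay above all 4 siNT1 libraries. Against siNT1, SNHG11 had a log2 fold change of 1.13 ± 0.15 with siGGGGGC at 48 h (edgeR adjusted p = 3.83e-06) and 0.86 ± 0.16 with siGGCAGU at 48 h (edgeR adjusted p = 0.000113). SNHG31, which starts 498 bases from BARD1 on the other strand and hosts SNORA70I, was too thin for any call. SNHG31 had normalised counts of 13.1 and 10.5 in the siNT1 libraries and 5.77 and 8.58 in the siGGGGGC libraries at 24 h, and of 9.29 and 14.3 with siNT1, 10.5 and 7.44 with siGGCAGU and 6.71 and 7.25 with siGGGGGC at 48 h. It passed in none of the 6 comparisons (edgeR adjusted p from 0.175 to 0.978).

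SNHG12 carries SNORA16A, SNORA44, SNORA61 and SNORD99. SNHG12 had normalised counts of 1422 and 1254 in the siNT1 libraries and 488 and 453 in the siGGGGGC libraries at 24 h, and of 871 and 1054 with siNT1, 353 and 359 with siGGCAGU and 482 and 535 with siGGGGGC at 48 h. It was lower with siGGGGGC at 24 h than at 48 h in relation to the siNT1 libraries of each time. Against siNT1, SNHG12 had a log2 fold change of -1.51 ± 0.11 with siGGGGGC at 24 h (edgeR adjusted p = 2.62e-08), -0.92 ± 0.11 with siGGGGGC at 48 h (edgeR adjusted p = 7.37e-07) and -1.44 ± 0.11 with siGGCAGU at 48 h (edgeR adjusted p = 2.2e-09). SNHG25 holds SNORD104 and SNORA50C, the second of which covers 39.12% of its exon bases. SNHG25 had normalised counts of 74.0 and 57.6 in the siNT1 libraries and 26.0 and 31.5 in the siGGGGGC libraries at 24 h, and of 50.3 and 62.4 with siNT1, 24.8 and 32.7 with siGGCAGU and 26.8 and 25.9 with siGGGGGC at 48 h. Against siNT1, SNHG25 had a log2 fold change of -1.20 ± 0.28 with siGGGGGC at 24 h (edgeR adjusted p = 0.00467), -1.11 ± 0.25 with siGGGGGC at 48 h (edgeR adjusted p = 0.00108) and -0.94 ± 0.24 with siGGCAGU at 48 h (edgeR adjusted p = 0.00301). For SNHG25 in siGGGGGC against siNT1 at 24 h, the edgeR adjusted p was 0.0798 without siNT1 24 h replicate 1 and 0.0636 without siGGGGGC 24 h replicate 1.

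Among the scaRNA hosts, SNHG10 holds SCARNA13. SNHG10 had normalised counts of 206 and 204 in the siNT1 libraries and 215 and 196 in the siGGGGGC libraries at 24 h, and of 195 and 199 with siNT1, 90.2 and 135 with siGGCAGU and 219 and 166 with siGGGGGC at 48 h. Its siGGGGGC libraries at 48 h lay on either side of the siNT1 libraries, and those of siGGCAGU lay below them. Against siNT1, SNHG10 had a log2 fold change of -0.77 ± 0.17 with siGGCAGU at 48 h (edgeR adjusted p = 0.000774). SNHG20 holds SCARNA16. SNHG20 had normalised counts of 277 and 262 in the siNT1 libraries and 217 and 172 in the siGGGGGC libraries at 24 h, and of 189.8 and 186 with siNT1, 204 and 252 with siGGCAGU and 119.6 and 94.2 with siGGGGGC at 48 h. Against siNT1, SNHG20 had a log2 fold change of -0.47 ± 0.16 with siGGGGGC at 24 h (edgeR adjusted p = 0.0421) and -0.81 ± 0.16 with siGGGGGC at 48 h (edgeR adjusted p = 0.000293). For SNHG20 in siGGGGGC against siNT1 at 24 h, the edgeR adjusted p was 0.223 without siNT1 24 h replicate 1, 0.129 without siNT1 24 h replicate 2 and 0.367 without siGGGGGC 24 h replicate 2, and the DESeq2 adjusted p was 0.0839. In siGGGGGC against siNT1 at 24 h the log2 fold change of SNHG20 was -0.31 without siGGGGGC 24 h replicate 2. SNHG21 holds SCARNA15, and 72.93% of its exon bases are shared with another long noncoding gene on the same strand. SNHG21 had normalised counts of 35.8 and 31.4 in the siNT1 libraries and 21.7 and 21.4 in the siGGGGGC libraries at 24 h, and of 18.6 and 24.1 with siNT1, 17.0 and 20.8 with siGGCAGU and 16.8 and 18.6 with siGGGGGC at 48 h. It passed in none of the 6 comparisons, with edgeR adjusted p from 0.138 to 0.788.

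The siRNAs were then compared with each other at 48 h, which needs no control library. Of the 29 hosts, 7 passed as higher with siGGGGGC than with siGGCAGU and 10 as lower, against 26.6% and 27.7% of all genes, and the median log2 fold change was -0.10. Beyond a log2 fold change of 1 there were 0 higher and 4 lower, against 10.1% and 12.9%. Both siGGGGGC libraries lay below both siGGCAGU libraries for 11 hosts (38% of all genes) and above them for 9 (37.7%). The hosts higher with siGGGGGC were SNHG9, by 0.95 ± 0.32 (edgeR adjusted p = 0.0276), SNHG16, by 0.81 ± 0.09 (edgeR adjusted p = 4.82e-07), and SNHG10, by 0.73 ± 0.18 (edgeR adjusted p = 0.00164). SNHG30 differed by 0.58 ± 0.17 (edgeR adjusted p = 0.00786), SNHG12 by 0.51 ± 0.12 (edgeR adjusted p = 0.000974), SNHG17 by 0.45 ± 0.12 (edgeR adjusted p = 0.00425) and SNHG15 by 0.43 ± 0.09 (edgeR adjusted p = 0.000773). The hosts lower with siGGGGGC were led by SNHG26, at -1.92 ± 0.17 (edgeR adjusted p = 2.06e-08), SNHG18, at -1.56 ± 0.35 (edgeR adjusted p = 0.000768), SNHG14, at -1.41 ± 0.16 (edgeR adjusted p = 3.27e-07), and SNHG20, at -1.11 ± 0.16 (edgeR adjusted p = 1.04e-05). SNHG4 differed by -0.87 ± 0.13 (edgeR adjusted p = 1.33e-05), SNHG29 by -0.63 ± 0.09 (edgeR adjusted p = 1.04e-05) and SNHG8 by -0.62 ± 0.11 (edgeR adjusted p = 4.68e-05). SNHG19, GAS5 and SNHG32 were lower by smaller amounts, with -0.53 ± 0.17 (edgeR adjusted p = 0.0184), -0.47 ± 0.11 (edgeR adjusted p = 0.00149) and -0.27 ± 0.09 (edgeR adjusted p = 0.0112). The other 12 hosts lay between -0.30 and 0.28. For SNHG1 the 95% interval of the difference ran from -0.11 to 0.33, for SNHG3 from -0.14 to 0.23 and for ZFAS1 from -0.20 to 0.20 on the log2 scale.

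For SNHG9 in siGGGGGC against siGGCAGU, the edgeR adjusted p was 0.0907 without siGGCAGU 48 h replicate 1, 0.0866 without siGGGGGC 48 h replicate 1 and 0.103 without siGGGGGC 48 h replicate 2. For SNHG10 in siGGGGGC against siGGCAGU, the edgeR adjusted p was 0.056 without siGGGGGC 48 h replicate 1. For SNHG17 in siGGGGGC against siGGCAGU, the edgeR adjusted p was 0.0818 without siGGCAGU 48 h replicate 2 and 0.0715 without siGGGGGC 48 h replicate 2. For SNHG19 in siGGGGGC against siGGCAGU, the edgeR adjusted p was 0.0678 with only the compared libraries fitted, 0.471 without siGGCAGU 48 h replicate 2, 0.07 without siGGGGGC 48 h replicate 1 and 0.1 without siGGGGGC 48 h replicate 2. For SNHG30 in siGGGGGC against siGGCAGU, the edgeR adjusted p was 0.0888 without siGGCAGU 48 h replicate 1 and 0.0531 without siGGGGGC 48 h replicate 2. For SNHG32 in siGGGGGC against siGGCAGU, the edgeR adjusted p was 0.136 without siGGGGGC 48 h replicate 1. In siGGGGGC against siGGCAGU the log2 fold change of SNHG9 was 1.45 without siGGCAGU 48 h replicate 2. In siGGGGGC against siGGCAGU the log2 fold change of SNHG17 was 0.30 without siGGCAGU 48 h replicate 2. In siGGGGGC against siGGCAGU the log2 fold change of SNHG19 was -0.82 without siGGCAGU 48 h replicate 1 and -0.13 without siGGCAGU 48 h replicate 2. In siGGGGGC against siGGCAGU the log2 fold change of SNHG30 was 0.39 without siGGCAGU 48 h replicate 1 and 0.89 without siGGCAGU 48 h replicate 2.

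**Figure D4:**
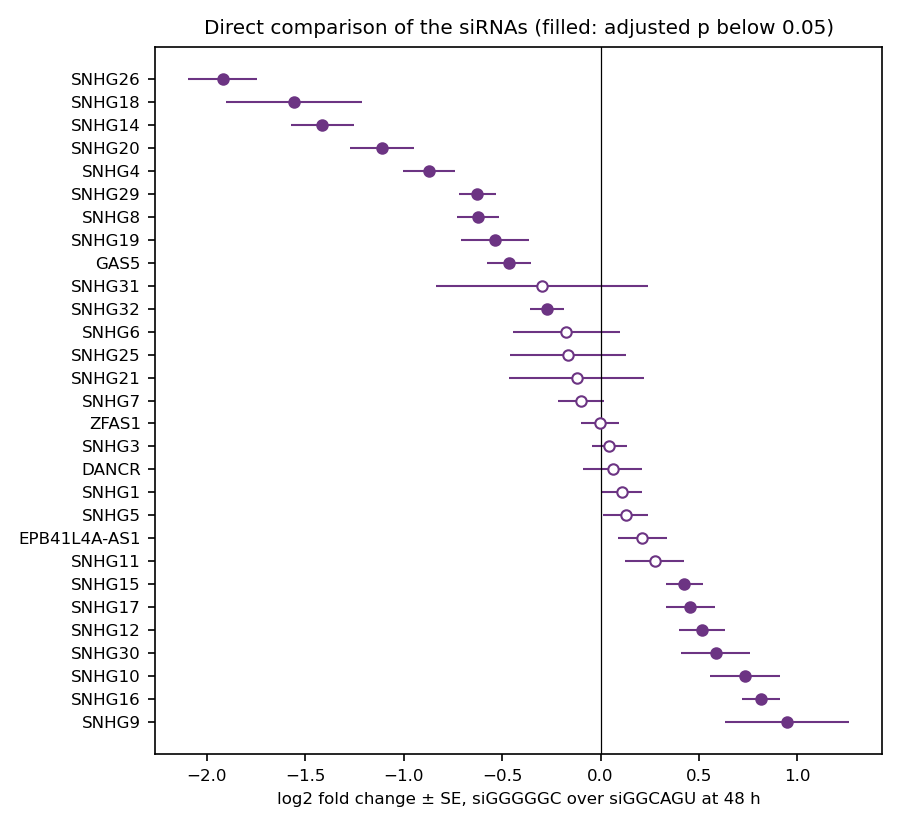
Log2 fold change of siGGGGGC over siGGCAGU at 48 h (horizontal axis, bars ± SE) for the 29 tested hosts (vertical axis, ordered by value). Filled points have an edgeR adjusted p below 0.05. SNHG26 lies farthest left at -1.92 and SNHG9 farthest right at 0.95.

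In control cells 12 of the 29 hosts were lower at 48 h after transfection than at 24 h. The 48 h wells alone had a medium change, at 24 h, so time and the medium change cannot be told apart here. From 24 h to 48 h with siNT1, these 12 passed as lower and 0 as higher, against 7.8% and 9.22% of all genes, and the median log2 fold change was -0.31. At an unadjusted p under 0.05, 1 was higher and 17 lower in edgeR, and DESeq2 called 0 higher and 11 lower. Both siNT1 libraries at 48 h lay below both at 24 h for 22 hosts (30.8% of all genes) and above them for 1 (30.8%). The largest decline was that of SNHG4, with a log2 fold change of -0.68 ± 0.11 (edgeR adjusted p = 0.000671), followed by SNHG1 with -0.66 ± 0.10 (edgeR adjusted p = 0.000381), EPB41L4A-AS1 with -0.59 ± 0.11 (edgeR adjusted p = 0.00199) and GAS5 with -0.54 ± 0.11 (edgeR adjusted p = 0.00361). SNHG20 had -0.52 ± 0.15 (edgeR adjusted p = 0.0219), SNHG15 -0.52 ± 0.09 (edgeR adjusted p = 0.00119), SNHG12 -0.47 ± 0.11 (edgeR adjusted p = 0.00579) and SNHG3 -0.42 ± 0.09 (edgeR adjusted p = 0.00334). SNHG8 had -0.36 ± 0.10 (edgeR adjusted p = 0.0197), SNHG29 -0.33 ± 0.09 (edgeR adjusted p = 0.0189), SNHG7 -0.33 ± 0.11 (edgeR adjusted p = 0.0389) and ZFAS1 -0.31 ± 0.09 (edgeR adjusted p = 0.0242). The other 17 hosts lay between -0.64 and 0.47, and 0 hosts passed beyond a log2 fold change of 1 in either direction (0.952% of all genes higher, 0.479% lower). The number that passed rested on single libraries, with 6 without siNT1 24 h replicate 1, 4 without siNT1 24 h replicate 2 and 6 without siNT1 48 h replicate 1.

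For EPB41L4A-AS1 in siNT1 at 48 h against 24 h, the edgeR adjusted p was 0.0821 without siNT1 24 h replicate 2. For GAS5 in siNT1 at 48 h against 24 h, the edgeR adjusted p was 0.0671 without siNT1 24 h replicate 2. For SNHG12 in siNT1 at 48 h against 24 h, the edgeR adjusted p was 0.113 without siNT1 24 h replicate 1 and 0.0882 without siNT1 48 h replicate 1. For SNHG20 in siNT1 at 48 h against 24 h, the edgeR adjusted p was 0.16 without siNT1 24 h replicate 1, 0.114 without siNT1 24 h replicate 2 and 0.0788 without siNT1 48 h replicate 1. For SNHG3 in siNT1 at 48 h against 24 h, the edgeR adjusted p was 0.0528 without siNT1 24 h replicate 1 and 0.0532 without siNT1 24 h replicate 2. SNHG29, SNHG8, SNHG7 and ZFAS1 likewise missed the threshold without either siNT1 library at 24 h or without siNT1 48 h replicate 1, with edgeR adjusted p from 0.0881 to 0.286. Without a filter on counts the edgeR adjusted p was 0.0551 for SNHG29, 0.159 for SNHG7 and 0.213 for ZFAS1, and the DESeq2 adjusted p of SNHG7 was 0.0515. In siNT1 at 48 h against 24 h the log2 fold change of GAS5 was -0.36 without siNT1 48 h replicate 1. In siNT1 at 48 h against 24 h the log2 fold change of SNHG8 was -0.23 without siNT1 48 h replicate 1. In siNT1 at 48 h against 24 h the log2 fold change of ZFAS1 was -0.20 without siNT1 48 h replicate 1.

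The response to siGGGGGC differed between the times for 6 hosts, 3 of them higher and 3 lower at 48 h than at 24 h in relation to siNT1, against 13.8% and 15.4% of all genes. Time and the medium change of the 48 h wells cannot be told apart in this difference either. SNHG26 fell further at 48 h, the difference of its log2 fold changes being -1.17 ± 0.23 (edgeR adjusted p = 0.000838), as did DANCR with -0.57 ± 0.19 (edgeR adjusted p = 0.0325) and SNHG8 with -0.44 ± 0.15 (edgeR adjusted p = 0.0273). SNHG11 rose further, with 0.87 ± 0.24 (edgeR adjusted p = 0.00938). The fall of SNHG12 and of EPB41L4A-AS1 was smaller at 48 h, by 0.59 ± 0.16 (edgeR adjusted p = 0.00843) and 0.55 ± 0.17 (edgeR adjusted p = 0.0185). Beyond 1 there were 0 higher and 1 lower, against 4.94% and 6.36%. For the other 23 hosts the difference ran from -0.41 to 0.77. The number that passed was 3 without siNT1 24 h replicate 1, 1 without siGGGGGC 24 h replicate 2 and 2 without siGGGGGC 48 h replicate 2, and SNHG26 was the call that held without each library in turn.

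The snoRNAs inside the hosts were sampled thinly. Of 145 snoRNA and scaRNA genes annotated within a host on its strand, 21 had enough counts to be tested, and 16 of these are no longer than 140 nt, the size above which RNA was sequenced, and whether their counts come from mature snoRNAs or from precursors was not tested. With siGGGGGC at 24 h, 8 of the 21 passed as lower and 1 as higher, at 48 h 13 and 0, and with siGGCAGU 8 and 6, with median log2 fold changes of -0.23, -1.07 and 0.15. Of all genes, 8.58% passed as lower and 10.9% as higher in the first of these comparisons, 27.4% and 27.9% in the second, and 24.7% and 27.9% in the third. SNORD93, inside SNHG26, had normalised counts of 87.5 and 131 with siNT1 and 16.8 and 10.4 with siGGGGGC at 48 h, a log2 fold change of -3.03 ± 0.28 (edgeR adjusted p = 2.27e-08), and SNORD93 also led the differences in time with -1.70 ± 0.37 (edgeR adjusted p = 0.0017). Of the snoRNA genes that passed, SNORD99, inside SNHG12, had the lowest value at 24 h, -1.82 ± 0.21 (edgeR adjusted p = 3.85e-06). SNORD12C, inside ZFAS1, had the lowest with siGGCAGU, -2.12 ± 0.23 (edgeR adjusted p = 4.23e-06), and the lowest with time in siNT1 cells, -1.0005 ± 0.19 (edgeR adjusted p = 0.00423). SNORA26, inside DANCR, had -2.21 ± 0.33 (edgeR adjusted p = 2.35e-05) with siGGGGGC at 48 h and SNORA13, inside EPB41L4A-AS1, had -1.47 ± 0.15 (edgeR adjusted p = 1.37e-07). In these pairs host and snoRNA were both lower.

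In some other hosts the counts of the snoRNA gene and of the host gene differed in direction or in passing the test. Host counts cover all annotated exons, so spliced RNA was not measured apart from other host RNA. Some snoRNA genes, such as SNORA13 and SNORA26, overlap annotated exons of their host. SNORA73B, inside SNHG3, is 204 nt long and was the most abundant of them, with normalised counts of 45201 and 53094 with siNT1, 70056 and 57147 with siGGCAGU and 40046 and 30037 with siGGGGGC at 48 h. Its siGGCAGU libraries lay above the control libraries, while those of SNHG3 lay far below, and with siGGCAGU it did not pass, at a log2 fold change of 0.37 ± 0.16 (edgeR adjusted p = 0.0605). SNORD1B, inside SNHG16, fell with siGGGGGC at 48 h, -2.78 ± 0.55 (edgeR adjusted p = 0.00028), where SNHG16 did not pass, on normalised counts of 16.3 and 35.5 against 5.59 and 2.07. SNORA70I, inside SNHG31, was higher with siGGCAGU, 0.96 ± 0.32 (edgeR adjusted p = 0.0152). SNORA71C, inside SNHG17 and overlapping an annotated exon of it, was the snoRNA gene that passed as higher at 24 h, 0.45 ± 0.14 (edgeR adjusted p = 0.024). SNORA71C and SNORA71A, both inside SNHG17, passed as higher with siGGCAGU, by 0.36 ± 0.13 (edgeR adjusted p = 0.0248) and 0.48 ± 0.18 (edgeR adjusted p = 0.0428). SNHG17 passed as lower there, at -0.57 ± 0.12 (edgeR adjusted p = 0.000592). SNORA71B and SNORA71D, also inside SNHG17, did not pass with siGGCAGU. The 3 tested SNORD116 copies inside SNHG14 (SNORD116-13, SNORD116-18 and SNORD116-19) were higher with siGGCAGU, as was their host. SNORD116-13 had normalised counts of 13.2 and 14.3 with siNT1 and 54.9 and 43.9 with siGGCAGU, a log2 fold change of 1.81 ± 0.29 (edgeR adjusted p = 2.91e-05), and SNORD116-18 differed between siGGGGGC and siGGCAGU by -2.74 ± 0.34 (edgeR adjusted p = 1.02e-06). These copies are near-identical, so the assignment of reads among them is uncertain.

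**Figure D5:**
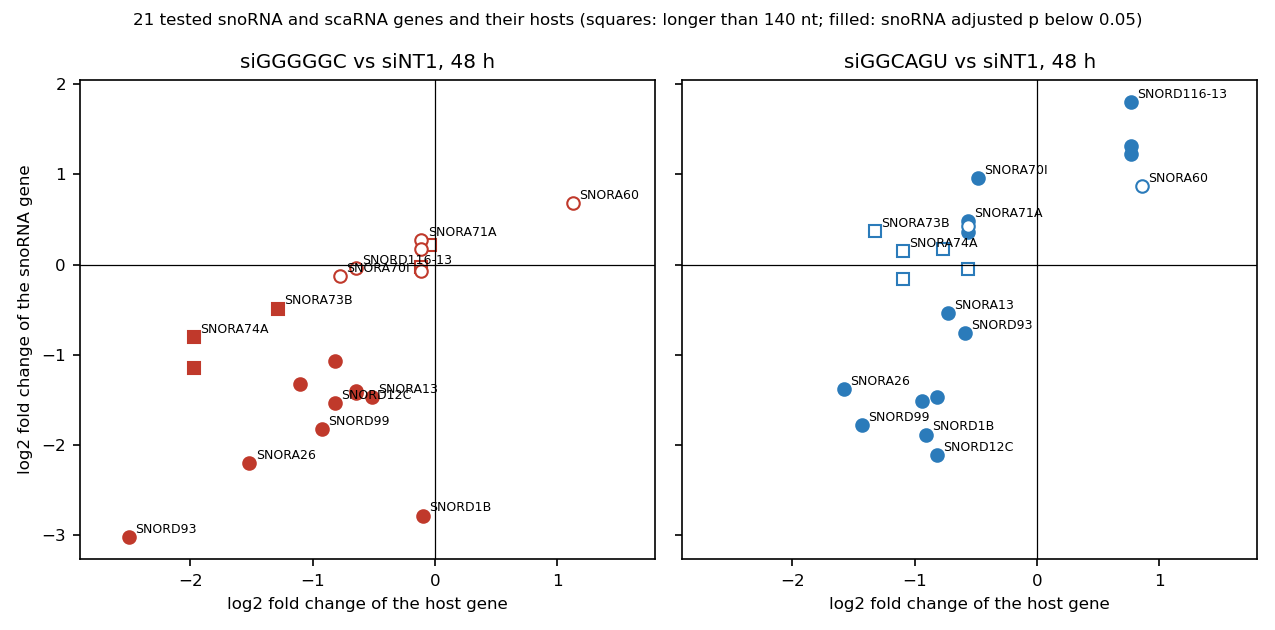
Log2 fold change of 21 tested snoRNA and scaRNA genes (vertical axis) against that of the host they lie in (horizontal axis), for siGGGGGC (left) and siGGCAGU (right) over siNT1 at 48 h. Circles are up to 140 nt long and squares longer, and filled points are snoRNA genes with an edgeR adjusted p below 0.05. With siGGGGGC most points lie in the lower left, from SNORD93 at -3.03, and with siGGCAGU the 5 squares lie between -0.16 and 0.37 on the vertical axis and left of 0 on the horizontal axis.

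Proteins of the snoRNP core, which coat the mature snoRNA, mostly did not pass at 24 h. For this list and those that follow, the shares of all genes that passed as higher and as lower were 10.9% and 8.58% with siGGGGGC at 24 h, 27.9% and 27.4% at 48 h, and 27.9% and 24.7% with siGGCAGU, and the highest and lowest gene of a list are those among its genes that passed. Of 8 genes, 1 passed as higher with siGGGGGC at 24 h and 0 as lower, 0 and 2 at 48 h, and 0 and 6 with siGGCAGU. NHP2, of box H/ACA particles, was the gene that was higher, with 0.39 ± 0.10 (edgeR adjusted p = 0.00767). FBL, the box C/D methyltransferase, had log2 fold changes of 0.18 ± 0.16 (edgeR adjusted p = 0.495), -0.23 ± 0.16 (edgeR adjusted p = 0.255) and -0.96 ± 0.16 (edgeR adjusted p = 0.000455) in these comparisons. NOP56, another box C/D protein, had -0.14 ± 0.08 (edgeR adjusted p = 0.25), -0.84 ± 0.08 (edgeR adjusted p = 5.4e-08) and -1.03 ± 0.08 (edgeR adjusted p = 2.77e-09). DKC1, the pseudouridine synthase of box H/ACA particles, had -0.09 ± 0.10 (edgeR adjusted p = 0.616), -0.85 ± 0.10 (edgeR adjusted p = 8.55e-07) and -1.08 ± 0.10 (edgeR adjusted p = 3.72e-08). Between the siRNAs NOP58 was highest with siGGGGGC, 1.02 ± 0.10 (edgeR adjusted p = 4.59e-08), and with time in siNT1 cells NOP56 passed, -0.28 ± 0.08 (edgeR adjusted p = 0.0244). Of 10 snoRNP assembly factors, 2 passed as higher and 1 as lower at 24 h, 2 and 3 at 48 h, and 2 and 4 with siGGCAGU. The helicase RUVBL2 was highest at both times with siGGGGGC, 0.90 ± 0.09 (edgeR adjusted p = 1.41e-06) and 0.72 ± 0.09 (edgeR adjusted p = 2.16e-06), and NUFIP1 lowest, -0.48 ± 0.12 (edgeR adjusted p = 0.00668) and -0.72 ± 0.11 (edgeR adjusted p = 2.31e-05), while with siGGCAGU RUVBL1 was highest, 0.59 ± 0.10 (edgeR adjusted p = 3.78e-05), and NAF1 lowest, -1.22 ± 0.19 (edgeR adjusted p = 2.57e-05).

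Factors of NMD, the pathway that removes many host RNAs, numbered 14, of which 1 passed as higher and 2 as lower with siGGGGGC at 24 h, 2 and 6 at 48 h, and 1 and 5 with siGGCAGU, which for the 48 h counts of either siRNA is to be read against 27.9% of all genes higher and 27.4% or 24.7% lower. UPF1, its central helicase, had log2 fold changes of 0.46 ± 0.14 (edgeR adjusted p = 0.027), 0.53 ± 0.13 (edgeR adjusted p = 0.00214) and -0.51 ± 0.13 (edgeR adjusted p = 0.00416), and 1.04 ± 0.13 (edgeR adjusted p = 3.93e-06) between the siRNAs. SMG1, the kinase of UPF1, had -0.29 ± 0.14 (edgeR adjusted p = 0.171), -0.40 ± 0.13 (edgeR adjusted p = 0.0228) and -0.29 ± 0.13 (edgeR adjusted p = 0.0823). The lowest were RBM8A at 24 h, -0.34 ± 0.11 (edgeR adjusted p = 0.0297), CASC3 at 48 h, -0.55 ± 0.10 (edgeR adjusted p = 0.000125), and RBM8A with siGGCAGU, -0.73 ± 0.10 (edgeR adjusted p = 6.6e-06), where SMG8 was the factor that passed as higher, 0.24 ± 0.10 (edgeR adjusted p = 0.0498). Of 8 coding genes known as NMD substrates, some of which are also stress genes, 2 passed as higher and 1 as lower at 24 h, 6 and 2 at 48 h, and 4 and 0 with siGGCAGU. ATF3 led with siGGGGGC, 1.07 ± 0.19 (edgeR adjusted p = 0.000513) and 3.71 ± 0.14 (edgeR adjusted p = 1.09e-13), and DDIT3 with siGGCAGU, 2.24 ± 0.14 (edgeR adjusted p = 1.34e-10). The lowest were ATF4 at 24 h, -0.62 ± 0.09 (edgeR adjusted p = 5.66e-05), and TBL2 at 48 h, -1.11 ± 0.11 (edgeR adjusted p = 7.74e-08). The 8 substrates had a median log2 fold change of -0.065 with siGGGGGC at 24 h, 0.71 at 48 h and 0.44 with siGGCAGU, where the noncoding hosts had -0.75, -0.81 and -0.77.

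In the other comparisons the same core and NMD genes were mixed. Between siGGGGGC and siGGCAGU the log2 fold change was 0.73 ± 0.16 (edgeR adjusted p = 0.0027) for FBL, 0.20 ± 0.08 (edgeR adjusted p = 0.0528) for NOP56, 0.22 ± 0.10 (edgeR adjusted p = 0.0748) for DKC1 and -0.10 ± 0.14 (edgeR adjusted p = 0.552) for SMG1. With time in siNT1 cells UPF1 was higher, 0.47 ± 0.14 (edgeR adjusted p = 0.0263), while FBL had -0.03 ± 0.16 (edgeR adjusted p = 0.92), DKC1 0.10 ± 0.10 (edgeR adjusted p = 0.544) and SMG1 0.34 ± 0.14 (edgeR adjusted p = 0.103). In the difference between times NOP56 had -0.70 ± 0.12 (edgeR adjusted p = 0.000143), DKC1 -0.76 ± 0.15 (edgeR adjusted p = 0.000513), FBL -0.41 ± 0.23 (edgeR adjusted p = 0.21), UPF1 0.07 ± 0.19 (edgeR adjusted p = 0.827) and SMG1 -0.11 ± 0.19 (edgeR adjusted p = 0.725).

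Protein-coding genes that host snoRNAs had a median nearer to 0 than the noncoding hosts in each comparison with siNT1. Of 24 such genes outside the ribosomal proteins, 1 passed as higher and 5 as lower with siGGGGGC at 24 h, 3 and 13 at 48 h, and 0 and 16 with siGGCAGU (of all genes 10.9% and 8.58%, 27.9% and 27.4%, and 27.9% and 24.7%), with median log2 fold changes of -0.10, -0.42 and -0.45. RABGGTB was lowest at 24 h, -0.98 ± 0.09 (edgeR adjusted p = 2.35e-07), TAF1D at 48 h, -1.71 ± 0.09 (edgeR adjusted p = 7.03e-12), and NCL with siGGCAGU, -1.56 ± 0.49 (edgeR adjusted p = 0.0452), while NAP1L4 and SNRPB were highest at 24 h and 48 h with siGGGGGC, 0.34 ± 0.09 (edgeR adjusted p = 0.0105) and 0.35 ± 0.09 (edgeR adjusted p = 0.00212). The siGGCAGU libraries differed widely for NCL, with normalised counts of 3136 and 9125, against 20237 and 16042 with siNT1 at 48 h. Ribosomal protein genes, which share the TOP start, had medians of -0.12, 0.06 and 0.0029, and 3, 18 and 4 of 82 passed as higher and 6, 19 and 19 as lower. Of those that passed, RPL36A was lowest with siGGGGGC, -1.03 ± 0.15 (edgeR adjusted p = 8.25e-05) and -1.42 ± 0.16 (edgeR adjusted p = 4.62e-07), RPS12 with siGGCAGU, -1.43 ± 0.12 (edgeR adjusted p = 3.09e-09), while RPL39L was highest at 24 h, 0.87 ± 0.10 (edgeR adjusted p = 7.2e-06), and RPS27L with siGGCAGU, 0.71 ± 0.11 (edgeR adjusted p = 1.46e-05). RPL3L, a paralog made mainly in muscle, had the highest fitted value with siGGGGGC at 48 h, but its normalised counts were 0.775 and 0 with siNT1 and 17.9 and 18.6 with siGGGGGC, too few for a fold. In siNT1 cells 46 of the 82 passed as lower at 48 h and 0 as higher, against 7.8% and 9.22% of all genes, with a median of -0.37. Other TOP genes of translation numbered 14, of which 1, 3 and 6 passed as lower and 0, 2 and 0 as higher, led by NAP1L1 at 24 h, -0.44 ± 0.09 (edgeR adjusted p = 0.00178), HNRNPA1 at 48 h, -0.91 ± 0.21 (edgeR adjusted p = 0.00646), and EIF3H with siGGCAGU, -0.85 ± 0.09 (edgeR adjusted p = 1.25e-07), and EIF3E was highest at 48 h, 0.39 ± 0.11 (edgeR adjusted p = 0.00551). How far the lists differ from the noncoding hosts was not tested.

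Several hosts start head to head with a coding gene within 1000 bases, and some partners differed from the host in direction or in passing the test. A difference in passing was not itself tested. SLC3A2, an amino acid transporter chain whose start lies 51 bases from that of SNHG1, had normalised counts of 3684 and 3528 with siNT1, 6688 and 7615 with siGGCAGU and 7579 and 7988 with siGGGGGC at 48 h, log2 fold changes of 0.99 ± 0.09 (edgeR adjusted p = 1.42e-08) and 1.11 ± 0.09 (edgeR adjusted p = 3.5e-09), while SNHG1 fell. ZBTB37, 800 bases from GAS5, rose with siGGCAGU, 1.78 ± 0.09 (edgeR adjusted p = 5.97e-12), where GAS5 did not pass. ZNFX1, 248 bases from ZFAS1, had -0.01 ± 0.09 (edgeR adjusted p = 0.921) with siGGGGGC at 48 h and -0.58 ± 0.09 (edgeR adjusted p = 1.78e-05) with siGGCAGU. TRAF7, 293 bases from SNHG19, fell with siGGGGGC at both times, -0.59 ± 0.12 (edgeR adjusted p = 0.00124) and -1.41 ± 0.11 (edgeR adjusted p = 4.5e-09), as SNHG19 did. BARD1, beside SNHG31, fell with siGGCAGU, -1.57 ± 0.11 (edgeR adjusted p = 2.77e-10), and ACAA2, beside SNHG22, was higher with siGGGGGC at 24 h, 0.63 ± 0.15 (edgeR adjusted p = 0.00635). SNHG31 was too thin for a call and SNHG22 too low to test, so BARD1 and ACAA2 cannot be compared with their hosts. RPS2, 54 bases from SNHG9, passed in 0 of these comparisons, and SEMA5A, beside SNHG18, was too low to test. Of the 7 tested partners, 3 passed as higher and 1 as lower with siGGGGGC at each time, and 2 and 3 with siGGCAGU, beside 10.9% and 8.58% of all genes at 24 h, 27.9% and 27.4% at 48 h, and 27.9% and 24.7% with siGGCAGU.

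Sequence features that the choice of genes did not use were set beside the changes, as a description without a test. The 7 hosts with a TOP start at their RefSeq start had a median log2 fold change of -1.22 with siGGGGGC at 24 h, -0.92 at 48 h and -0.82 with siGGCAGU, and the 18 without one, which include GAS5 and SNHG29, had -0.59, -0.65 and -0.60. By the start of the canonical GENCODE transcript, a choice added after the values were seen, the order was the other way round: the 4 hosts with a TOP start, GAS5, SNHG12, SNHG29 and ZFAS1, had medians of -0.68, -0.73 and -0.45 and the other 25 had -0.75, -0.81 and -0.77. By the RefSeq start all 7, SNHG18 among them, passed as lower with siGGGGGC at 48 h. The 13 hosts with a GCCCCC word had a median of -0.82 with siGGGGGC at both times and the 16 without it -0.73 and -0.80, and 10 of each group passed as lower at 48 h. The 10 hosts with an ACTGCC word had a median of -0.75 with siGGCAGU and the 19 without it -0.82. SNHG26, with the largest fall under siGGGGGC, had 0 GCCCCC and 2 ACTGCC words in its canonical transcript, SNHG4 had 0 of each, and SNHG11, which rose, had 1 GCCCCC word. SNHG14 had 10 GCCCCC and 2 ACTGCC words. It passed as lower with siGGGGGC at 48 h, at -0.65, and as higher with siGGCAGU, at 0.77.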

How the data were processed

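Total RNA of HeyA8 cells was sequenced in 10 libraries, 2 for each of 5 groups, after ribosomal RNA depletion and paired-end sequencing. The deposited values are counts of exonic read pairs per Ensembl gene. Per the labels, the submitters' notes name TopHat, Bowtie2, HTSeq, DESeq2 and hg38, the study's methods name the Ensembl release, and the strand setting and which aligner was used for these libraries are not given in the sources used here. Total counts were 19781445 to 42428986 per library. The authors also deposited tables of their own comparisons, with DESeq2 mean counts, fold changes and p-values, which were not used.

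Counts were filtered with filterByExpr, scaled by TMM and fitted with edgeR 4.0.16 in R 4.3.3 (quasi-likelihood, robust, all 10 libraries, 5 groups, 5 residual degrees of freedom), with Benjamini-Hochberg adjustment over 16905 genes and a threshold of 0.05. Normalised counts are counts scaled to the mean TMM library size. Log2 fold changes use a prior count of 0.125. Gene spans, exons and canonical transcripts were taken from GENCODE v44 (hg38), which held 98.9% of the gene IDs, and start sequences from RefSeq (GRCh38.p14). On simulated counts for siGGGGGC against siNT1 at 24 h, with 16905 genes, the fit recovered 66% of 50 genes lowered by a log2 fold change of -1 and 22% of 50 lowered by -0.5. Only these genes and as many raised ones were changed, drawn at any level, whereas 3286 genes passed in the data. The adjustment depends on the share of changed genes, so the rates for the hosts in these data may differ. The alternatives were other scalings (DESeq2 size factors, upper quartile), a stricter and no filter, DESeq2 1.42.0, libraries left out, only the compared groups, a replicate block, small structural RNAs taken out, and a fold threshold.

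The genes and lists were chosen with earlier results of these data known. All hosts are named. UPF1, SMG1, FBL, NOP56 and DKC1 were to be given in all comparisons, and of each list the gene that passed with the largest change in each direction. That second part is printed in full for the comparisons with siNT1 of the same time. SNORA73B, SNORA26, SNORA13, SNORD1B, SNORA70I, SNORA71A, SNORA71B, SNORA71D, ZNFX1 and RPS2 were named after their values were seen, as was SNORA71C with siGGCAGU.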

Additional observations from a re-analysis of the deposited data

Results flagged for a closer look

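For 6 hosts the response to siGGGGGC differed between 24 h and 48 h by the test of the difference itself (edgeR interaction contrast, all genes tested, 13.8% higher and 15.4% lower). The differences of the log2 fold changes, 48 h less 24 h, were -1.17 for SNHG26, -0.57 for DANCR, -0.44 for SNHG8, 0.55 for EPB41L4A-AS1, 0.59 for SNHG12 and 0.87 for SNHG11. For SNHG26 the host and SNORD93 inside it differed in the same direction, SNORD93 by -1.70 ± 0.37 (edgeR adjusted p = 0.0017). For DANCR in the difference in time, the edgeR adjusted p was 0.0807 without siNT1 24 h replicate 1, 0.0845 without siNT1 24 h replicate 2, 0.138 without siGGGGGC 24 h replicate 2, 0.0994 without siNT1 48 h replicate 2 and 0.201 without siGGGGGC 48 h replicate 2, and the DESeq2 adjusted p was 0.0548. For EPB41L4A-AS1 in the difference in time, the edgeR adjusted p was 0.113 without a filter on counts, 0.149 without siNT1 24 h replicate 2, 0.125 without siGGGGGC 24 h replicate 2, 0.0572 without siGGGGGC 48 h replicate 1 and 0.0788 without siGGGGGC 48 h replicate 2. For SNHG11 in the difference in time, the edgeR adjusted p was 0.0539 without siGGGGGC 24 h replicate 2. For SNHG12 in the difference in time, the edgeR adjusted p was 0.0702 without siNT1 24 h replicate 1, 0.0538 without siGGGGGC 24 h replicate 2 and 0.0634 without siGGGGGC 48 h replicate 2. For SNHG8 in the difference in time, the edgeR adjusted p was 0.114 without siNT1 24 h replicate 1, 0.0845 without siGGGGGC 24 h replicate 1, 0.0592 without siGGGGGC 24 h replicate 2, 0.0927 without siNT1 48 h replicate 2 and 0.129 without siGGGGGC 48 h replicate 2. SNHG26 passed without each of the 8 libraries left out in turn.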

How the results depend on the processing

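Hosts that passed numbered 19, 21 and 23 against siNT1 (siGGGGGC at 24 h, at 48 h, siGGCAGU), 17 between the siRNAs, 12 with time in siNT1 cells and 6 in the difference between times. Leaving out 1 library gave 14 to 15, 19 to 22, 22 to 23, 13 to 17, 4 to 15 and 1 to 8. With a threshold of 1 on the log2 fold change added, 11, 11, 8, 4, 0 and 1 passed, and all other settings gave 18 to 21, 19 to 22, 22 to 23, 16 to 17, 10 to 15 and 5 to 9. With the replicate number as a block, 18, 21, 23, 17, 12 and 6 hosts passed, and over all genes 2978 in place of 3286 with siGGGGGC at 24 h and 2395 in place of 2877 with time in siNT1 cells, while SNHG16 and SNHG20 with siGGGGGC at 24 h had edgeR adjusted p of 0.0653 and 0.0537. The numbers were not treated as pairs: deviations of same-numbered libraries correlated between -0.29 and 0.11 over 11516 genes. For single hosts that passed in the main fit, 1105 values in other settings kept direction and side of the threshold. Of the rest, 90 kept direction and missed the threshold, and 0 reversed. Hosts that did not pass in the main fit were left out of this count, so hosts that newly passed elsewhere are not shown by it. Other scalings moved the median of all genes by between -0.0488 and 0.0385 on the log2 scale. With 2 libraries a group, no permutation test could reach 0.05, and for SNHG31, with 97 counts in all libraries, the standard error of the log2 fold change was 0.44 to 0.75, so that a change of the median size was not detectable.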
